A study of Mus musculus with 27 samples.

Results

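Expression of death receptors and their partners of the tumor necrosis factor (TNF) family was described in mouse kidneys after ischemia of increasing length. The group held 8 genes, taken by symbol from the 19392 genes with deposited values. These were the ligand genes Tnfsf10 (encoding TRAIL) and Tnf, the death receptor genes Fas, Tnfrsf10b and Tnfrsf1a, the receptor genes Tnfrsf1b and Tnfrsf12a, and Casp8, which encodes the caspase that death receptors activate. All 8 were found and all 8 passed the filter on low values, which asked for more than 0 FPKM in at least 3 kidneys. FPKM counts fragments per length of transcript and per size of library, so levels can be compared between genes.

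The left kidneys came from 27 C57BL/6 mice, with 3 mice in each group. In the ischemic groups the right kidney was removed. The left renal pedicle was clamped for 16, 18, 20, 22, 24, 26, 28 or 30 min on a 37 °C plate. The control group, called 0 min, is labelled sham. The study lists 0 min among the times of this model but does not describe the sham surgery separately. If sham mice kept the right kidney, its loss and clamping cannot be told apart in comparisons with sham. All left kidneys were taken after 24 h, so each group is a single time point after surgery. Age and sex are not given in the sources used here. The question addressed was how expression depends on the length of ischemia.

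In this family a ligand on one cell or in solution brings receptor chains of another cell together. Fas, TNFR1 (encoded by Tnfrsf1a) and the TRAIL receptor (encoded by Tnfrsf10b) carry an intracellular death domain. In Fas and the TRAIL receptor the adaptor FADD binds this domain and recruits caspase-8. All of these receptors can also signal to the transcription factor NF-kB. The protein c-FLIP, encoded by Cflar, restrains caspase-8 in the complex with FADD. TNFR2 (Tnfrsf1b) and Fn14 (Tnfrsf12a) lack a death domain and signal through TRAF proteins. Fn14 is the receptor of TWEAK, the product of Tnfsf12. In the kidney, TNF family signals are known as regulators of tubular cell death and of inflammation after injury.

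The 250 bases before the RefSeq start site of 4 of the genes are shown because they were the genes that moved most or moved together, Tnfsf10 and Fas being highest in sham kidneys and Tnfrsf1a and Tnfrsf12a rising in step. The sequences are from RefSeq on GRCm38.p6, read 5′ to 3′ towards the gene. For Fas this start site lies inside the annotated span of the gene, so the end of its window, at 34290658, passes the start of the span at 34290647. Capitals mark matches to GGG and CC with 5 free bases between them (the letters of an NF-kB site), TTTC repeated after 2 free bases (an interferon-stimulated response element, ISRE), TTCNNNGAA (a gamma-activated site, GAS) and TGANTCA (an AP-1 site) on either strand.
Tnfsf10, chr3:27316827-27317076, plus strand: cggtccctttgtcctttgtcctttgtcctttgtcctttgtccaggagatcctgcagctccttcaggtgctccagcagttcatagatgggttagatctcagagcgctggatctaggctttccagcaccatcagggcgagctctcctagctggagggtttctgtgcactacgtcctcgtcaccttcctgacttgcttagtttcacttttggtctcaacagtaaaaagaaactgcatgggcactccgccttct
Fas, chr19:34290409-34290658, plus strand: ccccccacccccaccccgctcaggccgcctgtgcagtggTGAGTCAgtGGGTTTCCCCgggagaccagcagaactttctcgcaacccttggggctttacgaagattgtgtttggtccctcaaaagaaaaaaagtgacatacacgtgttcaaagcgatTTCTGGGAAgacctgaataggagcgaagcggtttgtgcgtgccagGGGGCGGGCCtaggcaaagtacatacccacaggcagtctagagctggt
Tnfrsf1a, chr6:125349473-125349722, plus strand: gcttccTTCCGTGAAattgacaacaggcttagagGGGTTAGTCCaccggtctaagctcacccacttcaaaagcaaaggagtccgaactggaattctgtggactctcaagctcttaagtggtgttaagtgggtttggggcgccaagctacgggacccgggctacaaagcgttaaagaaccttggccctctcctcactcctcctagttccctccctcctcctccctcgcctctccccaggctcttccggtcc
Tnfrsf12a, chr17:23677450-23677699, minus strand: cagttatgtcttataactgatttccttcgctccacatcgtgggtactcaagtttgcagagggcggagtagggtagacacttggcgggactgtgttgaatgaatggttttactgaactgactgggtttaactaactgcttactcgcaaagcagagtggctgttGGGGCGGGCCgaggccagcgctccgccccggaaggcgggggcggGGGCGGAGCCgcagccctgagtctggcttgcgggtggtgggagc
Promoters of 7 of the 8 genes were matched. The Fas window held an AP-1 match at -211 to -205 from the start site, a GAS match at -93 to -85 and NF-kB letters at -202 to -193 and -48 to -39. The Tnfrsf1a window held 1 NF-kB and 1 GAS match, the Tnfrsf12a window held 2 NF-kB matches and the Tnfsf10 window held none of the 4. Of the windows not shown, that of Tnfrsf1b held the ISRE letters at -10 to -1, a GAS match at -181 to -173 and NF-kB letters. That of Tnf held NF-kB letters and that of Casp8 none of the 4. Of 27025 promoter windows of the same length, 45.4% held the NF-kB letters, 3.04% the ISRE, 7.18% the GAS and 6.87% the AP-1 letters, so the NF-kB match is a common one. These matches describe letters and not bound sites.

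The genes lie on 7 chromosomes in GRCm38.p6. Tnfsf10 spans chr3:27317077-27339665, Fas chr19:34290647-34327775, Tnfrsf10b chr14:69767472-69784411, Tnfrsf1a chr6:125349723-125362483 and Casp8 chr1:58795233-58847503, all on the plus strand. Tnfrsf1b (chr4:145212368-145246870), Tnfrsf12a (chr17:23675445-23677449) and Tnf (chr17:35199367-35202007) are on the minus strand. On the strand of Casp8 the annotation also places Gm37760, and on that of Fas the small RNA gene Gm27818, so some reads of the 2 genes could belong to these.

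Before testing, kidneys were compared with each other. No column repeated another. The summed FPKM of 9 interferon response genes differed within the sham group, at 79.15, 1979.62 and 1356.05 in replicates 1, 2 and 3, and lay between 26.06 and 89.03 in the 24 ischemic kidneys. Replicate 3 at 16 min stood near the sham kidneys for several genes below. Markers of proximal tubule, loop of Henle, collecting duct, podocytes and endothelium were above 0 in every group, and their levels differed between groups, with proximal tubule sums of 1705.47 to 3110.29 FPKM from 16 to 26 min and 641.39 to 1195.64 at 28 and 30 min. Comparisons with sham used limma on log2(FPKM + 1), quantile normalized over the 27 kidneys and fitted to 18188 genes with Benjamini-Hochberg adjustment. A gene passed the test at an adjusted p under 0.05, and was called if its log2 fold change also exceeded 1 in size. The 8 comparisons with sham share the same 3 control kidneys. Because tissue was measured whole, fewer cells of a type and less RNA per cell cannot be told apart.

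**Figure D1:**
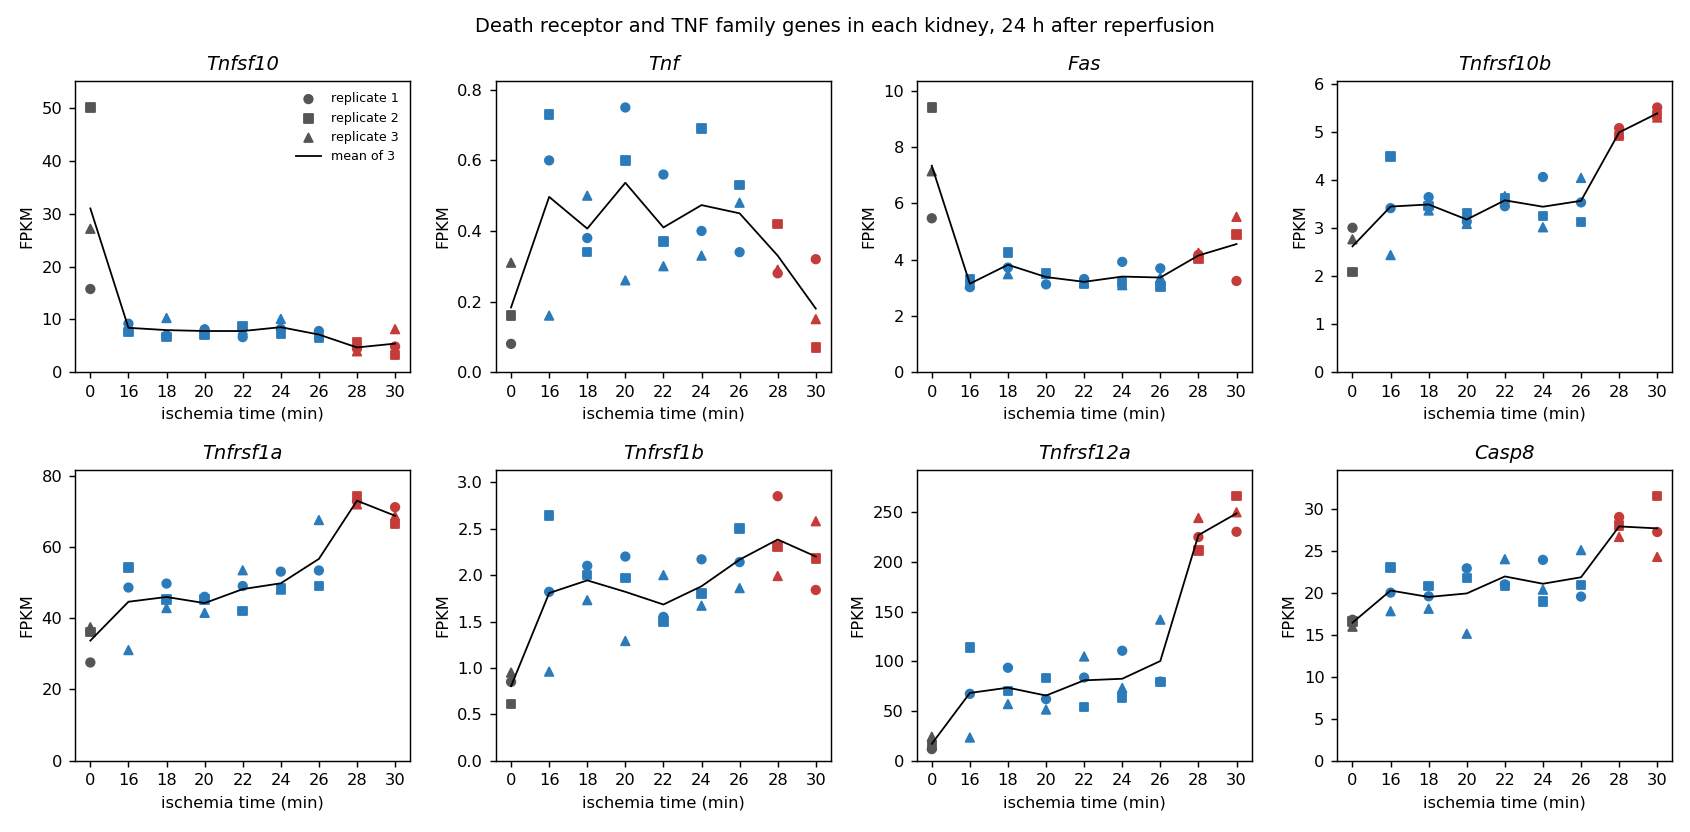
FPKM of the 8 genes (vertical axes, linear, from 0) in each of 27 kidneys against ischemia time in min, with sham in grey, 16 to 26 min in blue, 28 and 30 min in red, a marker shape per replicate number and a line through the means of 3. Tnfsf10 is at 15.74 FPKM or more in the sham kidneys and at 10.24 or less in all others, and Tnfrsf12a is at 211.48 or more in the 6 kidneys at 28 and 30 min and at 141.81 or less in all others.

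Against sham, 3 of the 8 genes were called at 16 min, where 2.25% of all genes tested were called. Tnfsf10 and Fas fell and Tnfrsf12a rose. The same 3 genes were called at 20 min (2.51% of all genes), 22 min (3.29%), 24 min (3.12%) and 26 min (3.77%). At 18 min Fas missed the fold limit and 2 genes were called (3.06% of all genes). At 28 min 3 genes were called (8.48% of all genes), Tnfsf10 lower and Tnfrsf12a and Tnfrsf1a higher. At 30 min 2 were called (10.7% of all genes), Tnfsf10 lower and Tnfrsf12a higher. By adjusted p alone, 4 of 8 passed at 16 min (19% of all genes), 18 min (27.8%) and 20 min (22.8%), and 5 of 8 at 22 min (28.8%), 24 min (28.3%) and 26 min (30.1%). At 28 min (48.2% of all genes) and at 30 min (52.3%) all but Tnf passed. The median log2 fold change of the 8 genes was 0.23 at 16 min and 0.65 at 30 min, while the median over all genes tested was -0.0028 and 0.00077. Without quantile normalization the median over all genes was 0.045 and 0.036. The 8 genes were chosen with earlier results of these data known, so their medians are descriptions.

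The raw FPKM of sham and ischemic kidneys did not overlap for 4 of the 8 genes at 16 min, where this held for 28.1% of all genes. It held for all 8 at 18 min (42.1% of all genes), 24 min (42.2%) and 26 min (41.9%), for 7 at 22 min (44.3%) and 28 min (56.9%), and for 6 at 20 min (38.1%) and 30 min (54.5%). Tnfsf10 and Tnfrsf1b were the genes without overlap at each of the 8 times.

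**Figure D2:**
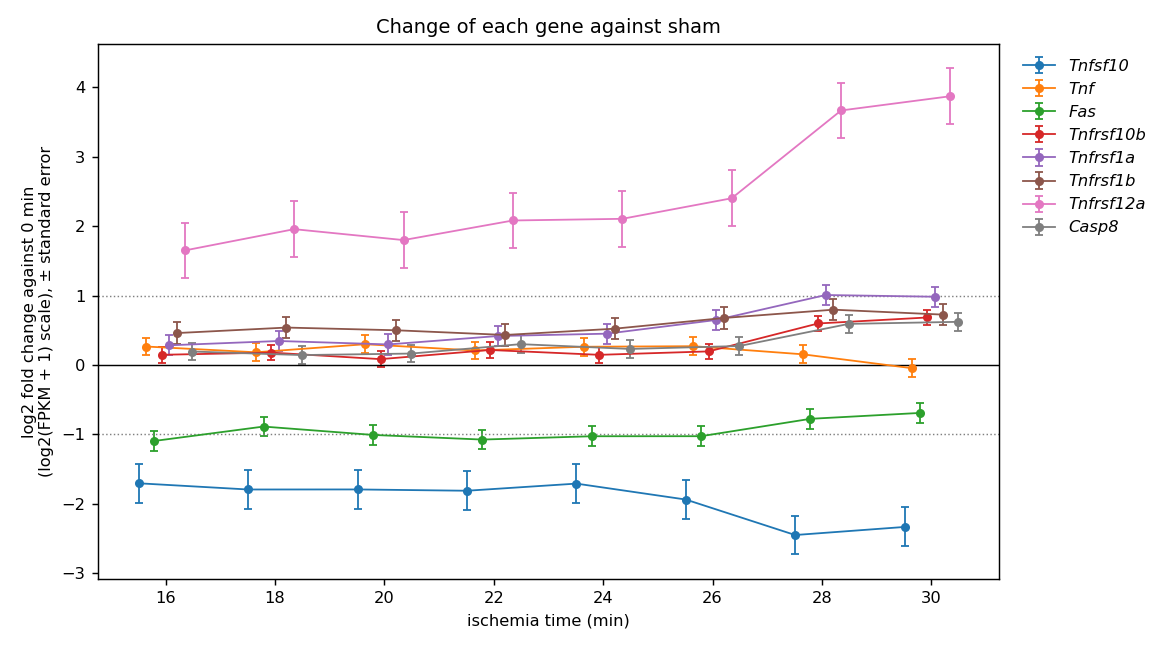
Log2 fold change of each gene against 0 min (vertical axis, log2(FPKM + 1) scale, bars are the standard error of the limma fit) by ischemia time in min, with dotted lines at the fold limits of -1 and 1. Tnfrsf12a rises from 1.65 at 16 min to 3.87 at 30 min, while Tnfsf10 lies between -1.70 and -2.45.

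Tnfsf10 encodes TRAIL, the ligand that engages the receptor made from Tnfrsf10b. Its FPKM in the 3 sham kidneys was 15.74, 50.13 and 27.15, and in the 24 ischemic kidneys no value exceeded 10.24. Every ischemic group lay below sham without overlap. The mean was 31.0 ± 17.5 FPKM (SD, n = 3) in sham, 8.39 ± 0.785 at 16 min and 7.11 ± 0.685 at 26 min. It was lowest after 28 min, with 4.67 ± 0.885, and stood at 5.39 ± 2.51 after 30 min. The sham mean was 3.70 times the mean at 16 min and 5.75 times that at 30 min. The log2 fold change was -1.70 ± 0.280 (SE) at 16 min (limma, adjusted p = 0.000444) and -2.33 ± 0.280 at 30 min (limma, adjusted p = 7.42e-07). In order of the means from 28 min upward, neighbouring groups overlapped up to 24 min, and only the step from 24 min to sham was free of overlap.

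Fas encodes the receptor of Fas ligand and the prototype of the death receptors. Its FPKM was 5.47, 9.41 and 7.14 in sham and 3.02, 3.29 and 3.12 at 16 min. Sham lay above every group up to 28 min without overlap, and a kidney at 30 min with 5.52 FPKM reached into the sham range. The mean fell from 7.34 ± 1.98 FPKM (SD, n = 3) in sham to between 3.14 ± 0.137 at 16 min and 3.82 ± 0.394 at 18 min in the groups up to 26 min. Means of 4.15 ± 0.107 and 4.55 ± 1.18 followed at 28 and 30 min. Relative to sham Fas changed by -1.09 ± 0.141 (SE) at 16 min (limma, adjusted p = 5.10e-05), -0.77 ± 0.141 at 28 min (limma, adjusted p = 0.000128) and -0.69 ± 0.141 at 30 min (limma, adjusted p = 0.000327). Without sham replicate 2 the change at 16 min was -0.91, and those at 20, 22, 24 and 26 min were also under the fold limit, with the test still passed. The lowest means were those from 16 to 26 min, so Fas was lowest after the shorter ischemia times and Tnfsf10 after the longer ones.

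The order of the sham kidneys was the same for Tnfsf10, Fas and the 9 interferon response genes, with replicate 1 lowest and replicate 2 highest. The interferon response genes fell together against sham, 7 of 9 being called lower at each time from 16 to 28 min and 8 of 9 at 30 min. Over these times between 2.25% and 10.7% of all genes were called in either direction. Gbp6, an interferon-inducible GTPase, had a log2 fold change of -6.64 and Iigp1, a GTPase of the same kind, of -5.60 at 30 min. With replicate 1 as the only sham kidney, an alternative chosen after seeing the data, Tnfsf10 was -0.94 at 16 min (limma, adjusted p = 0.0666), between -0.94 and -1.17 from 18 to 26 min, -1.68 at 28 min and -1.57 at 30 min. In that fit Tnfsf10 passed the test at every time after 16 min. Fas was -0.76 at 16 min and -0.45 at 28 min, passing the test without reaching the fold limit, and -0.36 at 30 min (limma, adjusted p = 0.0859). The lone sham kidney is assumed there to vary like the other groups. Its interferon sum of 79.15 lay within the range of the ischemic kidneys, and its Tnfsf10 level of 15.74 FPKM lay above all 24 of them. The part of interferon response in the 2 decreases was not tested.

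**Figure D3:**
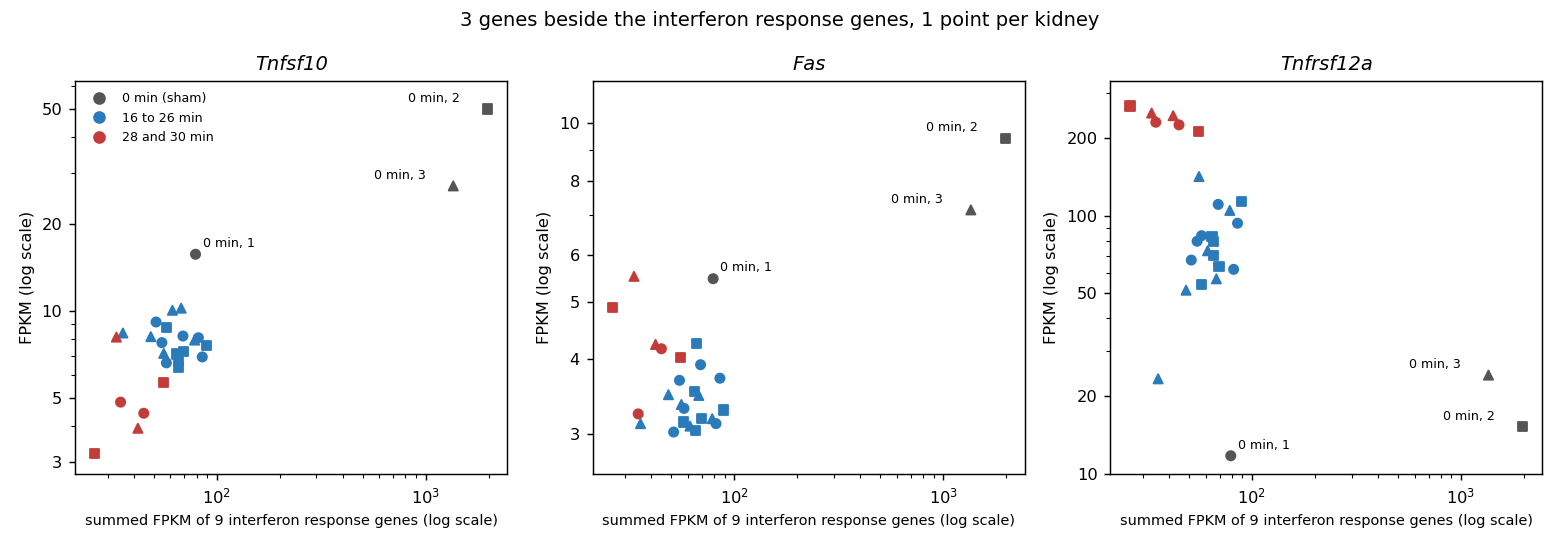
FPKM of Tnfsf10, Fas and Tnfrsf12a (vertical axes, log scale) against the summed FPKM of 9 interferon response genes (horizontal axis, log scale), 1 point per kidney, with the 3 sham kidneys marked by replicate and the colours and marker shapes of the plot of FPKM by ischemia time. Sham replicates 2 and 3 stand apart at sums of 1979.62 and 1356.05, and sham replicate 1 shares the sums of the ischemic kidneys.

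Tnf, the gene of the ligand that founds the family, was below 1 FPKM in every kidney. Its FPKM was 0.08, 0.16 and 0.31 in sham, 0.60, 0.73 and 0.16 at 16 min, 0.28, 0.42 and 0.29 at 28 min and 0.32, 0.07 and 0.15 at 30 min. The highest value of all 27 kidneys was 0.75, at 20 min. The means of 0.183 ± 0.117 FPKM (SD, n = 3) in sham and 0.180 ± 0.128 at 30 min were the lowest, and those from 16 to 26 min lay between 0.407 and 0.537. No comparison with sham passed the test. On the log2(FPKM + 1) scale, which understates changes of genes this low, the largest difference from sham was 0.30 ± 0.128 (SE) at 20 min (limma, adjusted p = 0.0999). The mean order had 30 min and sham lowest, and each neighbouring pair in it overlapped.

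Tnfrsf10b encodes the mouse TRAIL receptor, the only TRAIL receptor with a death domain in mice. Its FPKM was 3.01, 2.09 and 2.77 in sham, 5.09, 4.93 and 4.98 at 28 min and 5.52, 5.36 and 5.31 at 30 min. All 6 kidneys at 28 and 30 min lay above the 18 kidneys from 16 to 26 min, which ranged from 2.44 to 4.50. The mean was 2.62 ± 0.477 FPKM (SD, n = 3) in sham, from 3.18 ± 0.121 at 20 min to 3.58 ± 0.110 at 22 min among the shorter times, and 5.40 ± 0.110 at 30 min. In order of the means, the steps from sham to 20 min, from 22 to 28 min and from 28 to 30 min were free of overlap and the others were not. Differences of Tnfrsf10b from sham did not pass the test up to 26 min, where the log2 fold change was 0.20 ± 0.112 (SE) (limma, adjusted p = 0.205). The rise was 0.60 ± 0.112 at 28 min (limma, adjusted p = 0.000170) and 0.69 ± 0.112 at 30 min (limma, adjusted p = 3.06e-05). The receptor gene thus rose at the 2 times at which its ligand gene was lowest.

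Tnfrsf1a, the gene of TNFR1, was among the higher expressed members. Its FPKM was 27.57, 36.08 and 37.45 in sham and 48.59, 54.19 and 31.04 at 16 min. It reached 72.74, 74.21 and 71.91 at 28 min and 71.13, 66.37 and 68.66 at 30 min. From 18 min on every group lay above sham without overlap, and replicate 3 at 16 min lay within the sham range. The mean was 33.7 ± 5.35 FPKM (SD, n = 3) in sham, from 44.2 ± 2.40 at 20 min to 56.6 ± 9.68 at 26 min among the shorter times, and 73.0 ± 1.16 at 28 min. Neighbours in the order of means overlapped except at the steps from sham to 20 min and from 30 to 28 min. The log2 fold change was 0.28 ± 0.146 (SE) at 16 min (limma, adjusted p = 0.190) and passed the test from 22 min on. It was 0.65 ± 0.146 at 26 min, 1.01 ± 0.146 at 28 min (limma, adjusted p = 1.07e-05) and 0.98 ± 0.146 at 30 min (limma, adjusted p = 1.03e-05). The fold limit therefore separated 28 min from 30 min although the 2 values differed by less than 1 SE. Without sham replicate 1 the value at 28 min was 0.88, and without replicate 2 at 28 min it was 0.99, both under the limit. The pass at 22 min was lost without sham replicate 1 or without replicate 1 or 3 at 22 min, and with the replicate block (limma, adjusted p = 0.0501). At 24 min it was lost without sham replicate 1 or without replicate 1 at 24 min.

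Tnfrsf1b, the gene of TNFR2, which leukocytes express strongly, was the lowest receptor gene of the group. Its FPKM was 0.85, 0.61 and 0.95 in sham and 1.82, 2.64 and 0.96 at 16 min. Values were 2.85, 2.31 and 1.99 at 28 min and 1.84, 2.18 and 2.58 at 30 min. Every ischemic group lay above sham without overlap, by 0.01 FPKM in the case of replicate 3 at 16 min. The mean was 0.803 ± 0.175 FPKM (SD, n = 3) in sham, from 1.68 ± 0.275 at 22 min to 2.17 ± 0.321 at 26 min among the shorter times, and 2.38 ± 0.435 at 28 min. Apart from the step between sham and 22 min, neighbours in the order of means overlapped. The mean was 2.25 times that of sham at 16 min and 2.74 times at 30 min. On the log2 scale Tnfrsf1b rose by 0.46 ± 0.154 (SE) at 16 min (limma, adjusted p = 0.0418), 0.80 ± 0.154 at 28 min (limma, adjusted p = 0.000236) and 0.73 ± 0.154 at 30 min (limma, adjusted p = 0.000480). The pass at 16 min was lost when any kidney but replicate 3 at 16 min was left out, with changes from 0.28 to 0.52 and adjusted p up to 0.274 in limma. Passes from 18 to 24 min were each lost without at least 1 kidney, and with sham replicate 1 as the only sham kidney none from 16 to 26 min held (limma, adjusted p from 0.0558 to 0.278). With a pseudocount of 0.1 FPKM it exceeded the fold limit, at 1.09, 1.25 and 1.15 for 26, 28 and 30 min.

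Of 6 macrophage markers 2 were called higher at 16 min (2.25% of all genes) and 4 at 30 min (10.7%). At both times 4 of the 6 had a log2 fold change above 0. By adjusted p alone 4 rose and 1 fell at 28 min, beside 48.2% of all genes. The sum of the 6 markers lay between 31.99 and 43.28 FPKM in sham. It was 106.26, 112.4 and 45.65 at 16 min and between 75.24 and 133.7 at 30 min, and the low kidney at 16 min was again replicate 3. The sum of 5 neutrophil markers was between 5.26 and 11.48 in sham. It lay between 15.18 and 19.18 at 28 min and between 22.39 and 30.27 at 30 min. At 30 min 2 of the 5 were called higher, beside 10.7% of all genes. The sum of 5 T cell markers was between 1.37 and 4.95 in sham and 0.53 and 0.72 at 30 min, where Cd3g was listed at 0 in all 3 kidneys. All 6 macrophage and all 5 neutrophil markers were above 0 in at least 1 kidney of each group. The part of these cells in the change of Tnfrsf1b was not tested.

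Tnfrsf12a, the gene of Fn14, had the largest changes of the 8 genes. Its FPKM was 11.75, 15.22 and 24.13 in sham and 67.32, 113.88 and 23.34 at 16 min. It was 79.64, 79.37 and 141.81 at 26 min, 224.87, 211.48 and 244.01 at 28 min and 230.17, 265.93 and 249.76 at 30 min. Replicate 3 at 16 min lay within the sham range, and all other ischemic kidneys lay above it. On the log2 scale Tnfrsf12a rose by 1.65 ± 0.402 (SE) at 16 min (limma, adjusted p = 0.00741), 2.40 ± 0.402 at 26 min (limma, adjusted p = 0.000200), 3.67 ± 0.402 at 28 min (limma, adjusted p = 4.06e-07) and 3.87 ± 0.402 at 30 min (limma, adjusted p = 1.10e-07). The mean was 17.0 ± 6.39 FPKM (SD, n = 3) in sham, from 65.6 ± 16.2 at 20 min to 100.3 ± 36.0 at 26 min among the shorter times, and 249 ± 17.9 at 30 min. Mean FPKM was 4.0 times the sham mean at 16 min, 13.3 times at 28 min and 14.6 times at 30 min. In order of the means, the steps from sham to 20 min and from 26 to 28 min were free of overlap and the others were not. The 16 min group, which is not next to sham in that order, did overlap with sham. Without replicate 2 at 16 min the change there was 1.15 (limma, adjusted p = 0.0651), and a fit of the sham and 16 min kidneys alone called none of the 8 genes. Replicate 3 at 26 min, the highest of the kidneys up to 26 min for Tnfrsf12a and for Tnfrsf1a, had the proximal tubule sum of 1705.47 FPKM, and sham kidneys had 2612.69 to 2973.78. The part of tubule markers in these values was not tested.

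Casp8, the initiator caspase of the receptor complex, was expressed at a middle level among the 8 genes. Its FPKM was 16.81, 16.61 and 15.98 in sham, 20.04, 23.02 and 17.83 at 16 min, 29.06, 28.07 and 26.68 at 28 min and 27.27, 31.54 and 24.30 at 30 min. All but 1 of the ischemic kidneys were above the highest sham kidney, the exception being replicate 3 at 20 min with 15.14. The mean was 16.5 ± 0.433 FPKM (SD, n = 3) in sham, from 19.5 ± 1.37 at 18 min to 22.0 ± 1.78 at 22 min among the shorter times, and 27.9 ± 1.20 at 28 min. In the order of means, sham and 18 min did not overlap, nor did 22 and 30 min, while the other neighbours did. The log2 fold change did not pass the test up to 26 min, where it was 0.27 ± 0.126 (SE) (limma, adjusted p = 0.111). Casp8 rose by 0.59 ± 0.126 at 28 min (limma, adjusted p = 0.000600) and 0.62 ± 0.126 at 30 min (limma, adjusted p = 0.000313).

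The groups from 16 to 26 min were next compared among themselves by a slope of log2(FPKM + 1) over ischemia time. No slope of the 8 genes passed the adjusted test in limma, where 0.011% of all genes did. By unadjusted p 1 of 8 was under 0.05, Tnfrsf1a, with 0.0323 ± 0.0124 (SE) per min, where 8.32% of all genes were. The slope of Tnfrsf12a was 0.0641 per min, with a 95% interval from -0.00684 to 0.135.

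Between 26 and 28 min, 1 of the 8 genes was called, where 1.5% of all genes were. Tnfrsf12a rose by 1.26 ± 0.402 (SE) on the log2 scale (limma, adjusted p = 0.0325) and its mean FPKM by 2.26 times. The groups did not overlap, 141.81 being the highest value at 26 min and 211.48 the lowest at 28 min. The call was lost when any kidney but replicate 3 at 26 min was left out, with adjusted p from 0.0647 to 0.120 in limma and changes from 1.11 to 1.30. Tnfrsf10b passed by adjusted p alone, as 19.3% of all genes did, with 0.40 ± 0.112 (limma, adjusted p = 0.0159). Its pass was lost without replicate 2 at 26 min or replicate 1 or 3 at 28 min, with adjusted p up to 0.0925. Over this step 4 of 5 proximal tubule markers fell and 3 of 5 neutrophil markers rose by adjusted p, the proximal tubule sums being 1705.47 to 2995.64 FPKM at 26 min and the neutrophil sums 5.44 to 8.99. Their part in these differences was not tested. In 6 of the 8 genes the 2 groups did not overlap, against 36.5% of all genes tested. Tnfsf10 was lower at 28 min in all 3 kidneys, and Fas, Tnfrsf10b, Tnfrsf1a, Tnfrsf12a and Casp8 were higher.

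From 28 to 30 min none of the 8 was called, where 1.05% of all genes were, and none passed the adjusted test in limma, which 13.2% of all genes did, or had an unadjusted p under 0.05. FPKM did not overlap for 2 of 8, Tnfrsf10b being higher and Tnfrsf1a lower at 30 min, against 28.3% of all genes. The 95% interval of the change was from -0.634 to 1.04 for Tnfrsf12a, -0.147 to 0.320 for Tnfrsf10b and -0.330 to 0.280 for Tnfrsf1a. The sum of 5 proximal tubule markers lay lower over this step, between 1063.95 and 1195.64 FPKM at 28 min and between 641.39 and 743.64 at 30 min. By adjusted p 4 of 5 proximal tubule markers fell and 4 of 5 endothelial markers rose, beside 13.2% of all genes. The part of these cells in the values of the 8 genes was not tested.

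With 28 and 30 min set against the 6 times from 16 to 26 min, all 8 genes passed the adjusted test, as did 52.1% of all genes, and 1 was called, as were 3.67% of all genes. Tnfrsf12a was higher by 1.77 ± 0.232 (SE) (limma, adjusted p = 1.99e-06), Tnfrsf1a by 0.59 ± 0.0844 (limma, adjusted p = 6.01e-06), Tnfrsf10b by 0.48 ± 0.0646 (limma, adjusted p = 2.73e-06) and Casp8 by 0.39 ± 0.0729 (limma, adjusted p = 0.000130). Fas was higher by 0.29 ± 0.0812 and Tnfrsf1b by 0.24 ± 0.0889. Both ligand genes went the other way, Tnfsf10 by -0.60 ± 0.162 (limma, adjusted p = 0.00371) and Tnf by -0.19 ± 0.0742 (limma, adjusted p = 0.0332). This comparison uses no sham kidney. Leaving out 1 kidney lost the passed test of Tnf in 4 of the fits, without replicate 1 or 3 at 28 min or replicate 2 or 3 at 30 min, with adjusted p up to 0.103 in limma. It lost that of Tnfrsf1b in 3, without replicate 1 at 28 min or replicate 2 or 3 at 30 min, with adjusted p up to 0.112. Of the other 15 ligand genes tested, 4 rose and 2 fell by adjusted p in this comparison, so the decrease of Tnfsf10 and Tnf was not that of the ligand genes as a whole.

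Cell type markers moved over the same comparison, counted here by adjusted p under 0.05 in limma, which 52.1% of all genes passed. All 5 proximal tubule markers fell, with a median log2 fold change of -1.38. All 3 markers of the loop of Henle and distal tubule fell, with a median of -1.23. Sums of these 3 markers were 596.24, 602.14 and 2341.41 FPKM in replicates 1, 2 and 3 at 30 min. In sham they were 1764.44 to 1952.65, so replicate 3 at 30 min lay above sham. That kidney also had the highest Tnfsf10 and Fas values at 30 min. All 5 endothelial markers rose (median 0.42), as did all 5 neutrophil markers (median 1.0) and 2 of 3 podocyte markers, while 2 of 6 macrophage markers rose and 1 fell. The part of these cell types in the changes of the 8 genes between the shorter and the longer times was not tested.

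**Figure D4:**
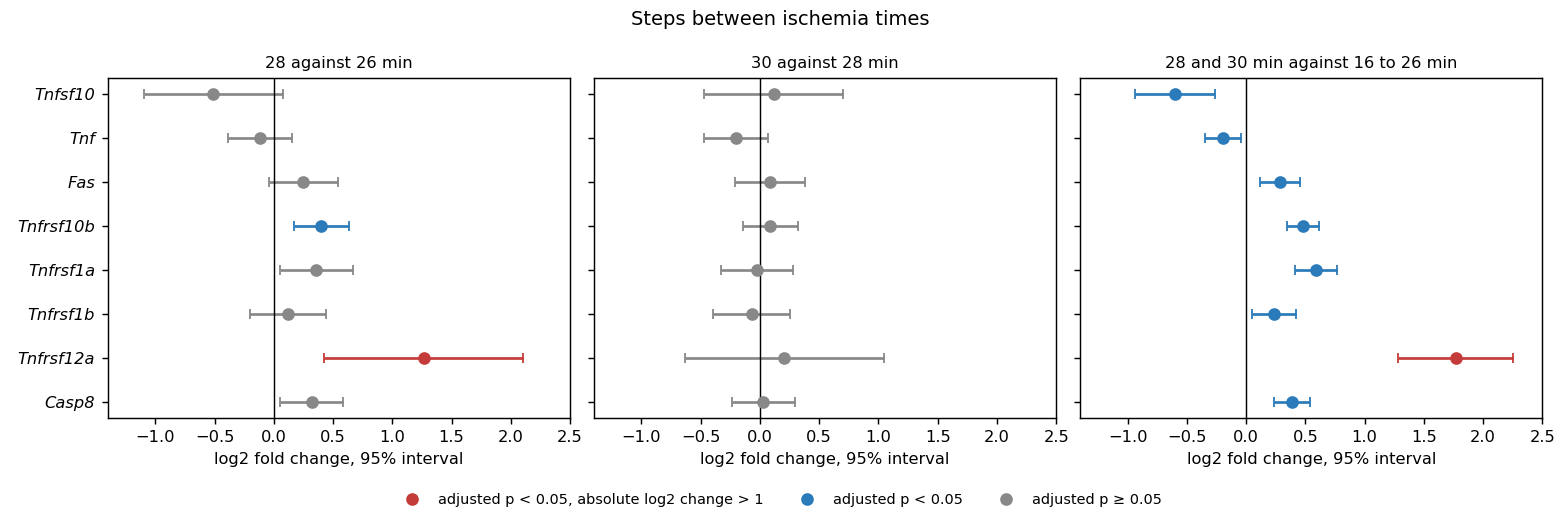
Log2 fold changes (horizontal axes, log2(FPKM + 1) scale, bars are 95% intervals) of the 8 genes for 28 against 26 min, 30 against 28 min, and 28 and 30 min together against 16 to 26 min, in red where called, blue where adjusted p alone passed and grey otherwise. Tnfrsf12a is the gene drawn in red, at 1.26 and 1.77, and all points are grey for 30 against 28 min.

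The partners of the 8 genes were then set against them within each kidney, as ratios of FPKM. The ratio of Tnfsf10 to Tnfrsf10b was 13 ± 9.78 (SD, n = 3) in sham, 2.60 ± 0.879 at 16 min and 2.0 ± 0.221 at 26 min. After 28 min it was 0.935 ± 0.187 and after 30 min 1.0 ± 0.479. The ratio of Tnfrsf12a to Tnfsf12, receptor to ligand, was 0.912 ± 0.428 in sham, 3.19 ± 1.09 at 26 min, 5.71 ± 0.297 at 28 min and 7.14 ± 1.08 at 30 min. Cflar encodes the restraint on caspase-8, and the ratio of Cflar to Casp8 was 1.87 ± 0.249 in sham, 1.27 ± 0.256 at 16 min, 0.977 ± 0.0685 at 28 min and 0.893 ± 0.0264 at 30 min. These 3 ratios did not overlap between sham and 30 min. The ratio of Tnfrsf1a to Tnfrsf1b was 43.7 ± 13.9 in sham and 31.9 ± 6.15 at 30 min and overlapped. An exact permutation test of 3 kidneys against 3, two-sided, cannot go below 0.1, and over the 12 tests made the smallest adjusted value was 0.133, so no ratio could pass.

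**Figure D5:**
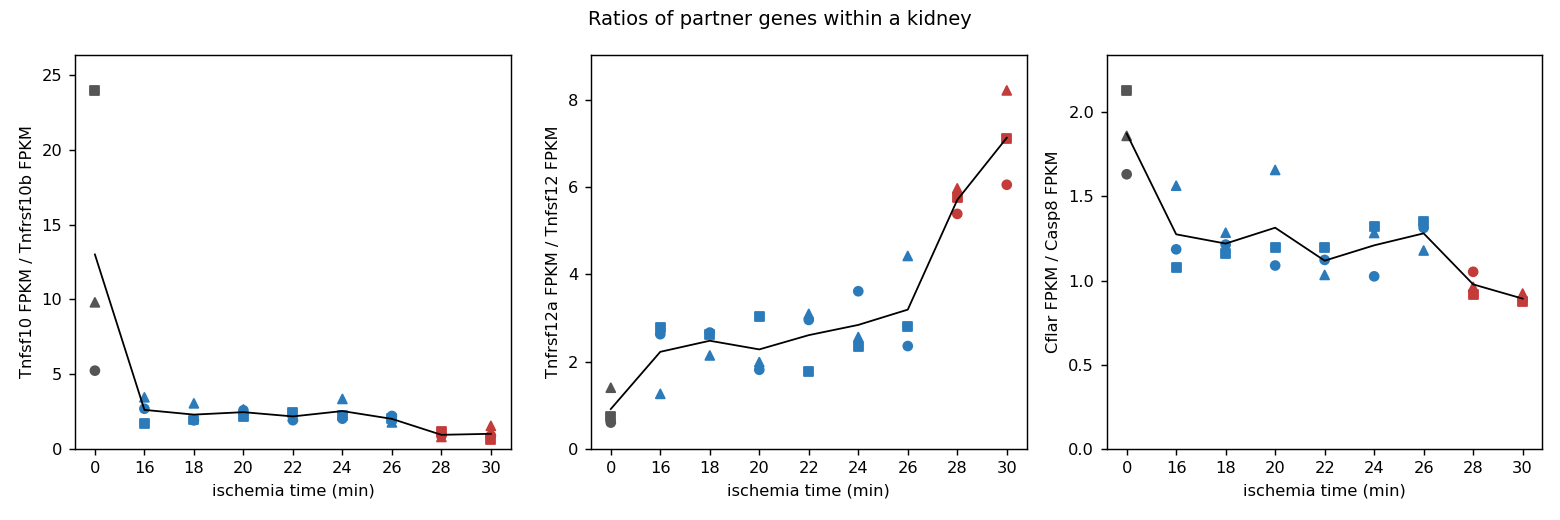
Within-kidney ratios of FPKM (vertical axes, linear, from 0) against ischemia time in min for Tnfsf10 to Tnfrsf10b, Tnfrsf12a to Tnfsf12 and Cflar to Casp8, with points for kidneys, lines through the means of 3, and the colours and marker shapes of the plot of FPKM by ischemia time. The mean ratio of Cflar to Casp8 goes from 1.87 in sham to 0.893 at 30 min, and that of Tnfrsf12a to Tnfsf12 from 0.912 to 7.14.

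Of 16 other ligand genes of the family, 15 could be tested and none was called in any comparison. At 30 min against sham 10.7% of all genes were called. By adjusted p alone 2 of the 15 rose and 3 fell there in limma, where 52.3% of all genes passed. An unadjusted p under 0.05 was found for 5. Tnfsf12, the TWEAK gene, had 19.56, 20.71 and 17.23 FPKM in sham and 38.00, 37.31 and 30.38 at 30 min. The groups did not overlap, and Tnfsf12 rose by 0.78 ± 0.177 (SE) on the log2 scale (limma, adjusted p = 0.000921). Fasl, the ligand gene of Fas, was listed at 0 in all 3 sham kidneys and at no more than 0.13 FPKM in any kidney.

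Of 23 other receptor genes, Tnfrsf23 was the 1 called, at 28 min (8.48% of all genes) and at 30 min (10.7%). Its protein binds TRAIL without a death domain and is regarded as a decoy. Its FPKM was 0.52, 0.46 and 0.97 in sham, 7.17, 5.41 and 4.86 at 28 min and 8.63, 9.44 and 10.11 at 30 min, a rise of 2.55 ± 0.284 (SE) on the log2 scale at 30 min (limma, adjusted p = 2.73e-07). All kidneys at these times were above all sham kidneys. Against 26 min Tnfrsf23 was called at 28 min too (1.5% of all genes), with 1.04 ± 0.284 (limma, adjusted p = 0.0141). Tnfrsf22, a neighbouring gene of like sequence, so that reads may be shared between them, rose by 0.95 at 30 min. Tnfrsf11b, the gene of the soluble receptor osteoprotegerin that also binds TRAIL, stayed at or below 0.40 FPKM in every kidney. By adjusted p alone 7 of the 23 rose and 3 fell at 30 min, where 52.3% of all genes passed.

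Among 23 genes of the receptor complex, Birc3 alone was called at 30 min, beside 10.7% of all genes, and none at any other time. Birc3, which encodes the ubiquitin ligase cIAP2 and is itself an NF-kB target, rose by 1.1 ± 0.183 (SE) on the log2 scale (limma, adjusted p = 3.59e-05). By adjusted p alone 7 of 23 rose and 3 fell at 30 min, against 52.3% of all genes passing in either direction. Cflar fell by 0.39 (limma, adjusted p = 0.00119), its FPKM being 27.43, 35.38 and 29.72 in sham and 24.05, 27.54 and 22.42 at 30 min, with an overlap. Ripk1, the kinase at the branch between survival and necroptosis, fell by 0.26 (limma, adjusted p = 0.00617). Fadd, the adaptor between receptor and caspase-8, had 8.07 ± 1.16 FPKM (SD, n = 3) in sham and 9.19 ± 0.289 at 30 min and passed in no comparison with sham.

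Downstream of caspase-8, 10 effector genes of apoptosis were listed. Bax and Bak1, which encode the pore formers of the mitochondrial membrane, were called at 30 min, where 10.7% of all genes were. Their log2 fold changes were 1.12 ± 0.131 (SE) and 1.06 ± 0.180. Bax was also called at 28 min (8.48% of all genes), with 1.04. Bid, the substrate through which caspase-8 reaches mitochondria, fell by 0.71 at 16 min (limma, adjusted p = 0.00153) and by 0.71 at 30 min (limma, adjusted p = 0.000201). Bid stood at 36.12, 39.69 and 37.28 FPKM in sham and 27.32, 25.23 and 19.74 at 30 min, with no overlap. By adjusted p alone 3 of the 10 rose and 3 fell at 30 min, beside 52.3% of all genes.

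The NF-kB list held 14 genes, of which 0 were called at 16 min (2.25% of all genes) and 2 at 26 min (3.77%). After 28 min 5 were called (8.48% of all genes) and after 30 min 4 (10.7%), all higher. By adjusted p alone 8 of the 14 rose and 0 fell at 30 min, beside 52.3% of all genes. At 16 min none passed by adjusted p in limma either, and 4 had an unadjusted p under 0.05. Relb, an NF-kB subunit gene, rose by 1.48 ± 0.242 (SE) at 30 min (limma, adjusted p = 3.11e-05) and Nfkb2, the gene of its partner, by 1.21 ± 0.236 (limma, adjusted p = 0.000214). The median log2 fold change of the list was 0.83 at 30 min. Of 5 genes of receptor and ligand shedding, Rhbdf2 and Rhbdf1, partners of the TNF-releasing protease ADAM17, were called higher at 30 min, with 1.23 and 1.05. Of 7 p53 targets, Cdkn1a, the cell cycle inhibitor gene, with 3.17, and Phlda3, an inhibitor of AKT, with 1.56, were called higher at 30 min. Of all genes 10.7% were called at that time. By adjusted p alone 3 genes rose and 1 fell in the shedding list, and likewise in the p53 list, beside 52.3% of all genes.

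For each gene, the 3 closest patterns over the 27 kidneys were sought among 12346 genes with a mean of at least 1 FPKM, as Pearson correlations of the normalized log2 values. All points share the same groups and fit scale, and these values are descriptions. Tnfrsf12a was closest to Plaur (0.991), the urokinase receptor gene, then Ap2m1 (0.987) and Vtcn1 (0.984). Tnfrsf1a was closest to Mvp (0.977), Lsr (0.970) and Eif6 (0.964). Tnfrsf10b was closest to Ier5 (0.946), the p53 target Cdkn1a (0.943) and Klrg2 (0.941).

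Tnfsf10 was closest to Ctso (0.942), Tmem140 (0.940) and the class I gene H2-T23 (0.938). Fas was closest to H2-D1 (0.909), H2-Q4 (0.901) and Gm8909 (0.900), which are class I antigen presentation genes or relatives of them that can share reads. Tnfrsf1b was closest to Clu (0.933), Tagln2 (0.925) and Sbf1 (0.919), and Casp8 to Nop9 (0.911), Ncs1 (0.910) and Mrpl33 (0.909). Tnf had no close match, the highest being Ccl20 (0.719), Nsl1 (0.718) and Dgkz (0.714). Among the 8 genes themselves, Tnfrsf1a and Tnfrsf12a were closest, with 0.958 over the 27 kidneys and 0.920 for deviations from the group means, so the 2 receptor genes also varied together between kidneys of 1 group. Tnfsf10 and Fas correlated at 0.669 over all kidneys and at 0.452 for deviations from the group means. For deviations within the ischemic groups alone the value was -0.0482.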

How the data were processed

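RNA-Seq of the left kidneys of 27 mice was done on the DNBSEQ-G400. The authors deposited linear FPKM per gene symbol, rounded to 2 decimals. Per the labels, Bowtie2, RSEM and DESeq2 were used with GRCm38.p6, and versions and annotation are not given in the sources used here. Counts are not in the values, so the depth of each kidney is unknown and precision was judged from the 3 replicates. Groups follow the labelled ischemia times.

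A pseudocount of 1 FPKM was added before taking log2, and kidneys were brought to the same distribution by quantile normalization. For the 18188 genes with FPKM above 0 in 3 kidneys or more, limma 3.58.1 (R 4.3.3) estimated 1 mean per time. Calls needed a fold beyond 1 on the log2 scale in either direction and p under 0.05 after Benjamini-Hochberg adjustment. The fit was tested on simulated data. Ratios, sums and figures used Python 3.11.15, pandas 2.3.3 and matplotlib 3.10.9. The alternatives were pseudocounts of 0.1 and 0.01 FPKM, no quantile normalization, rescaling to a constant sum, a filter of 1 FPKM, no filter, the compared groups alone, a trend, a replicate block, each kidney left out and, added after seeing the data, sham replicate 1 as the only sham kidney.

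The 8 genes and all lists were chosen with earlier results of these data known. Named beyond the 8 were up to 2 genes with the largest increase and 2 with the largest decrease per list among those called at 30 min against sham, the partner genes Fasl, Fadd, Cflar, Ripk1, Tnfsf12, Tnfrsf11b and Bid, and the 3 closest patterns per gene. Tnfrsf22 was named after its values were seen, and 1 further partner gene is not reported here.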

Additional observations from a re-analysis of the deposited data

Results flagged for a closer look

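The effect of ischemia against sham differed between 26 and 28 min for 2 of the 8 genes by limma's test of the difference itself. Of all genes tested, 19.3% passed this test. Tnfrsf12a was higher at 28 min by 1.26 on the log2 scale, in 3 of 3 kidneys above all 3 at 26 min, and Tnfrsf10b by 0.40, likewise in 3 of 3 kidneys. Neither held in every fit with 1 kidney left out, which lost the passed test of Tnfrsf12a in 5 of 6 fits (all but that without replicate 3 at 26 min, adjusted p up to 0.120 in limma) and that of Tnfrsf10b in 3 of 6 (without replicate 2 at 26 min or replicate 1 or 3 at 28 min, adjusted p up to 0.0925).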

How the results depend on the processing

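Most values kept their direction and side of the threshold. Precision was limited by 3 kidneys per group and unknown depth. In the fit of the compared groups alone, 0 of the 8 genes were called at 16 min in place of 3. That fit called 8 of all 18188 genes, against 410 with the settings used above. With pseudocounts of 0.1 or 0.01 FPKM or a constant sum, 4 were called in place of 2 at 30 min, Tnfrsf1a and Tnfrsf1b being added. Over all genes these settings called 3276, 3822 and 2377, against 1950 with the settings used above. With sham replicate 1 as the only sham kidney, Tnfsf10, Fas and Tnfrsf12a were -0.94, -0.76 and 2.07 at 16 min, in place of -1.70, -1.09 and 1.65. At 30 min they were -1.57, -0.36 and 4.30, in place of -2.33, -0.69 and 3.87. In deviations from the group means, same-numbered kidneys of different groups correlated over 0.1 in 25 of 108 pairs. Differently numbered kidneys did so in 53 of 216. The median correlations were -0.0087 and -0.0100, so a shared number went with no closer likeness. The replicate block changed no count of calls, with 3 genes called at 16 min, and Tnfrsf1a at 22 min then had an adjusted p of 0.0501 in limma. In the fit of the compared groups alone Fas at 30 min had one of 0.0723. Leaving out 1 kidney gave 2 to 3 calls at each time against sham, 0 to 1 for 28 against 26 min, 1 for the pooled late times and 0 for 30 against 28 min and the slope. Fas kept an adjusted p under 0.05 but fell under the fold limit at 16, 20, 22, 24 and 26 min without sham replicate 2 (-0.91, -0.83, -0.89, -0.85 and -0.84) and without quantile normalization. The cause was not tested.

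Signs that turned belonged to values that did not pass the test. Casp8 from 28 to 30 min was -0.019 without quantile normalization and -0.0038 with a constant sum, and the slopes of Tnf and Fas were -0.00098 and 0.00086 in the same settings. With sham replicate 1 alone, Tnfrsf10b was -0.0021, -0.065 and -0.0026 at 16, 20 and 24 min, and Tnf was 0.11 at 30 min. With 1 kidney left out, Tnfrsf10b ran from -0.0017 to 0.30 at 16 min and from -0.013 to 0.16 at 20 min, and Tnf from -0.12 to 0.036 at 30 min. From 28 to 30 min the ranges were -0.17 to 0.36 for Tnfsf10, -0.023 to 0.27 for Fas, -0.048 to 0.014 for Tnfrsf1a, -0.14 to 0.031 for Tnfrsf1b and -0.072 to 0.11 for Casp8. For the slopes they were -0.0067 to 0.015 for Tnfrsf10b, -0.0012 to 0.027 for Tnfrsf1b, -0.0086 to 0.0091 for Tnf and -0.0057 to 0.0019 for Fas.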
